A study of Mus musculus with 8 samples.

Results

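Transcripts of the muscle acetylcholine receptor and of genes known to respond to loss of the motor nerve were followed in the gastrocnemius, a calf muscle, of mice lacking Bcat2, which encodes the mitochondrial branched-chain aminotransferase BCATm. The 10 genes were given by name: the receptor subunit genes Chrna1, Chrnb1, Chrnd, Chrne and Chrng, the synaptic kinase gene Musk, the transcription factor genes Myog and Runx1, and the denervation response genes Gadd45a and Ncam1. Each was found on 1 row of the deposited table, so 10 of 38741 distinct gene symbols were described. The wild-type group (WT1 to WT4) held 4 male mice on a C57BL6 background aged 9 to 10 weeks and weighing 22 to 25 g. The knockout group (KO5 to KO8) held 4 male mice on the same background, homozygous for the Bcat2tm1.2Clyn allele, aged 10 to 11 weeks and weighing 15 to 24 g. Dams and weaned mice of both groups had a free choice between a chow and a diet without branched-chain amino acids. The labels do not say whether the wild-type mice were littermates of the knockouts, nor which labelled knockout is KO5, KO6, KO7 or KO8, so no weight or age was tied to a knockout library. Values are FPKM, read abundance scaled by the authors' software to transcript length and library size, which allows levels of different genes to be set side by side.

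As background, the receptor of the neuromuscular junction is a pentamer of 2 alpha subunits with 1 beta, 1 delta and, in adult muscle, 1 epsilon subunit. Fetal and denervated muscle carries gamma in place of epsilon. In innervated fibres the nuclei under the synapse transcribe the receptor genes, while electrical activity keeps the rest of the fibre silent. When the nerve is lost, Hdac4 represses Dach2, and Myog, a basic helix-loop-helix factor, then activates receptor, Musk and ubiquitin ligase genes through E-boxes.

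The DNA just before the start of 4 of these genes is shown because Chrna1, Chrng and Myog were highest in the same mouse, KO5, while the adult subunit Chrne was not. The sequences are RefSeq gene starts of build GRCm38.p6 and hold the 160 bases before the start, 5′ to 3′ on the strand of the gene. Capitals mark E-boxes (CANNTG, of which CAGCTG is one form) and the N-box core (CCGGAA), searched on both strands.
Chrna1, chr2:73580339-73580498, minus strand: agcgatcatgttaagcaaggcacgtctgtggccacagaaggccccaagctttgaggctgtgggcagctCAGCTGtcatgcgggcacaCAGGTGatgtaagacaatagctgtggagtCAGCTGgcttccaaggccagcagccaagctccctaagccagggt
Chrng, chr1:87205651-87205810, plus strand: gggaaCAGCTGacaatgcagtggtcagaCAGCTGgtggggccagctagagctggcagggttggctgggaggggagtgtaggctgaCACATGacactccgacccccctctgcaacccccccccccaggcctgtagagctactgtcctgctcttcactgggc
Myog, chr1:134289844-134290003, plus strand: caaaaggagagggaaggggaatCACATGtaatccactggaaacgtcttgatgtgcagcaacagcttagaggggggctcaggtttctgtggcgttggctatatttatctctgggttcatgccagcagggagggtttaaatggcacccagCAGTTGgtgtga
Chrne, chr11:70619195-70619354, minus strand: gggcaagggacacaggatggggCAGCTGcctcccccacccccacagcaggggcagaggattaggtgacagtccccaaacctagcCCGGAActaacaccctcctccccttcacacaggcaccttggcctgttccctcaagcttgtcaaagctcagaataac
Chrna1 held 3 E-boxes in this window and Chrng 3, in each case 2 of them CAGCTG. Myog held 2, neither of them CAGCTG. Chrne held 1 E-box of the form CAGCTG and was the only one of the 4 with the N-box core, 76 to 71 bases before its start. RefSeq starts were matched for 8 of the 10 genes, with 9 windows because Runx1 has 2 starts. An E-box was present in 8 of the 9 windows against 49.8% of 32851 promoter windows of this length, CAGCTG in 4 of 9 against 8.97%, and CCGGAA in 3 of 9 against 9.57%. The windows with CCGGAA besides Chrne were those of Gadd45a and of 1 start of Runx1, and both genes were highest in KO5. CAGCTG was also present for Musk, which was not highest in KO5. It was absent for Chrnb1, Gadd45a and Runx1, which were highest there. These are letter matches and no binding was measured.

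In the deposited mm10 positions, 3 of the genes lie on chromosome 1: Chrnd (87190652 to 87200069) and Chrng (87205811 to 87211835) are neighbours on the plus strand without overlap, and Myog spans 134290004 to 134292547. Chrnb1 (69784036 to 69795943) and Chrne (70614883 to 70619216) share chromosome 11. The others are Chrna1 on chromosome 2 (73563215 to 73580338), Musk on chromosome 4 (58285960 to 58374303), Gadd45a on chromosome 6 (67035096 to 67037457), Ncam1 on chromosome 9 (49504361 to 49798922) and Runx1 on chromosome 16 (92601467 to 92826066). FPKM cover the exons of the whole gene, so isoforms were not separated.

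Relative to WT2, sequencing depth ran from 0.437 (WT4) to 1.23 (WT3) in wild type and from 0.547 (KO5) to 1.21 (KO7) in knockouts. Bcat2 itself read 41.2 to 83.0 FPKM in the wild-type mice, and 2.09 to 5.26 FPKM in the knockouts. The labelled tissue was checked with 9 muscle genes, among them Ckm, muscle creatine kinase, at 10059.3 to 13974.9 FPKM. WT1 and KO6 carried fat transcripts, with 7 adipocyte markers summing to 15703.4 and 8266.0 FPKM against 614 to 2030.5 FPKM elsewhere, and KO6 carried epidermal transcripts, with 6 markers summing to 1374.3 FPKM against at most 8.93 FPKM. Across genes, KO8 was low: over all tested genes, the median deviation from the 8-mouse mean was -0.35 on the log2(FPKM + 1) scale in KO8 and between -0.07 and 0.16 in the other mice.

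**Figure D1:**
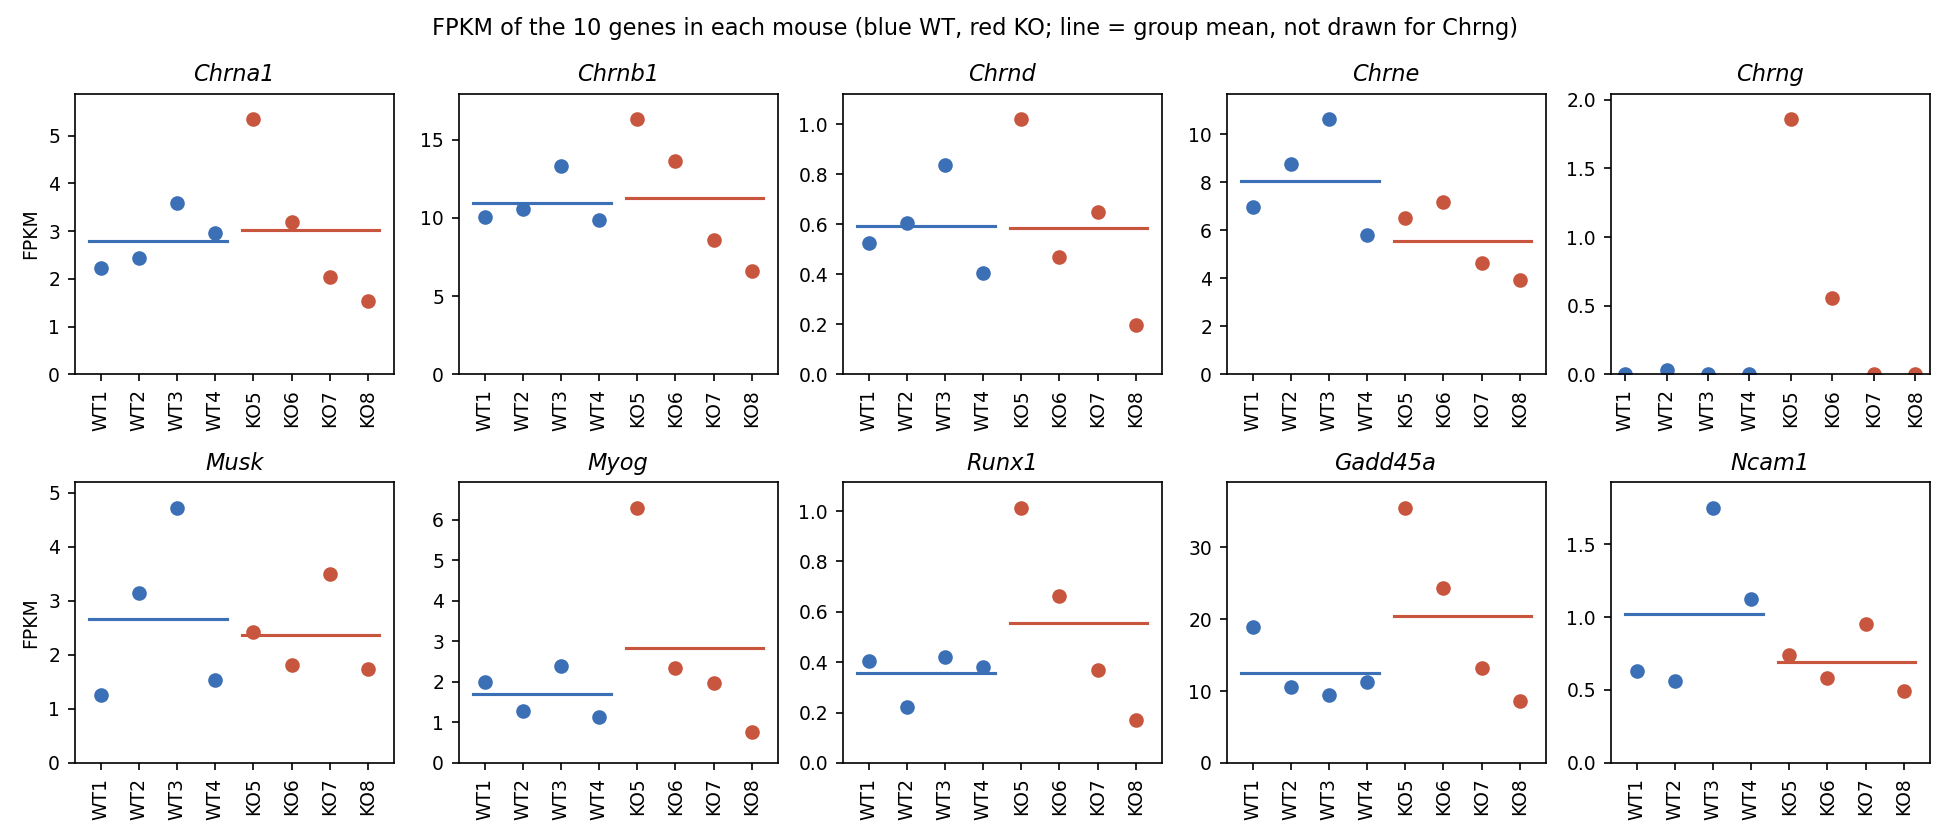
FPKM of each of the 10 genes (vertical axis, linear from 0) in the 8 mice (horizontal axis), wild type in blue and knockouts in red, with a line at the group mean except for Chrng. KO5 is the highest mouse in 7 panels, reaching 6.30 FPKM for Myog and 1.86 FPKM for Chrng, and the genotypes overlap in every panel.

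By level, Gadd45a and Chrnb1 led in wild type with means of 12.5 and 10.95 FPKM, followed by Chrne at 8.05 FPKM. Chrna1 (2.80 FPKM), Musk (2.66 FPKM), Myog (1.71 FPKM) and Ncam1 (1.02 FPKM) came next, then Chrnd (0.593 FPKM) and Runx1 (0.358 FPKM), with Chrng at the bottom. Between neighbours in this order, the ranges of the 4 wild-type mice were apart for 2 pairs, Chrne over Chrna1 and Runx1 over Chrng, and overlapped for the other 7. In knockouts the leading 4 genes were the same and in the same order, and the ranges of neighbours were apart for 1 pair, Musk over Ncam1. The order of the subunits, beta over epsilon over alpha, was the same in each of the 8 mice, although the receptor contains 2 alpha subunits and 1 of each other kind.

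Of the subunits that adult and fetal receptors share, Chrnb1, the beta subunit, read 10.1, 10.6, 13.3 and 9.86 FPKM in WT1 to WT4 and 16.3, 13.6, 8.59 and 6.60 FPKM in KO5 to KO8. The knockouts lay on both sides of the wild-type range, KO5 and KO6 above it and KO7 and KO8 below it. Group means were 10.95 ± 1.58 and 11.3 ± 4.46 FPKM (SD, n = 4 each), and the difference was -0.03 on the log2 scale (95% interval -0.62 to 0.57 with an SE of 0.26, limma adjusted p = 0.968). Chrna1, the alpha subunit that carries most of the acetylcholine-binding site, read 2.22, 2.43, 3.60 and 2.96 FPKM in the wild-type mice, and 5.35, 3.18, 2.03 and 1.53 FPKM in the knockouts. KO5 was the highest mouse and KO7 and KO8 lay below all wild-type mice, and the means of 2.80 ± 0.614 and 3.02 ± 1.70 FPKM (SD, n = 4 each) were close (log2 difference 0.01, 95% interval -0.65 to 0.66 with an SE of 0.29, limma adjusted p = 0.996). Chrnd, the delta subunit, read 0.524, 0.604, 0.837 and 0.406 FPKM in the wild-type mice, and 1.02, 0.468, 0.648 and 0.197 FPKM in the knockouts (exact permutation p = 0.914, 2-sided). KO5 was again highest and KO8 lowest.

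Chrne, the adult epsilon subunit, read 6.99, 8.75, 10.6 and 5.81 FPKM in the wild-type mice, and 6.50, 7.18, 4.64 and 3.92 FPKM in the knockouts. Every knockout lay below the wild-type mean, and KO7 and KO8 lay below all wild-type mice, but KO5 and KO6 lay within the wild-type range. The means were 8.05 ± 2.11 and 5.56 ± 1.53 FPKM (SD, n = 4 each), a knockout mean at 69.1% of wild type. The difference of -0.46 on the log2 scale did not pass the threshold (95% interval -0.98 to 0.05 with an SE of 0.22, limma adjusted p = 0.484, exact permutation p = 0.143). Among the 6 genes tested with limma it had the smallest unadjusted p (0.0698), and the difference was below 0 in all 20 alternatives run. Chrne overlaps 4930544D05Rik on the opposite strand, which read 0.817 to 3.47 FPKM, and the library kit does not mark strand, so reads of the overlap cannot be assigned to either gene. Set against Chrnb1 in the same library, a ratio that a single factor per library leaves as it is, Chrne stood at 0.589 to 0.826 of the Chrnb1 FPKM across wild-type mice, and at 0.398 to 0.593 in knockouts. Relative to Chrna1, Chrne stood at 1.96 to 3.60 in wild type and 1.22 to 2.56 in knockouts. Relative to Chrnd it ran from 12.7 to 14.5 in wild type, and in knockouts KO5 (6.36) and KO7 (7.16) lay below that range and KO6 (15.3) and KO8 (19.9) above it. KO5 had the lowest of the 8 values for each of the 3 ratios. These ratios were chosen after the values were seen and were not tested.

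Chrng, the fetal gamma subunit, was found mainly in KO5 and KO6. It was listed at 0 in WT1, WT3 and WT4 and at 0.0313 FPKM in WT2. In knockouts it read 1.86 FPKM in KO5 and 0.554 FPKM in KO6 and was listed at 0 in KO7 and KO8. As a share of gamma plus epsilon FPKM, gamma made up 22.3% in KO5, 7.16% in KO6 and 0.357% in WT2. Relative depths were 0.547 in KO5 and 0.727 in KO6, 1.21 and 0.774 in KO7 and KO8, and 0.437 in WT4 to 1.23 in WT3 among wild-type mice, and the part of depth in these listings was not tested. A listing at 0 is not a measured absence, since Gabpa, a subunit of the factor GABP that many cells use, was listed at 0 in all 8 mice. With 2 of 4 knockouts at 0, the genotypes overlapped, and the exact permutation p was 0.429 (2-sided). Since only KO5 and KO6 stood well above 0, that p depends on which mice carry Chrng and not on how high it reads. The test could therefore not pass, and no conclusion is drawn from it.

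**Figure D2:**
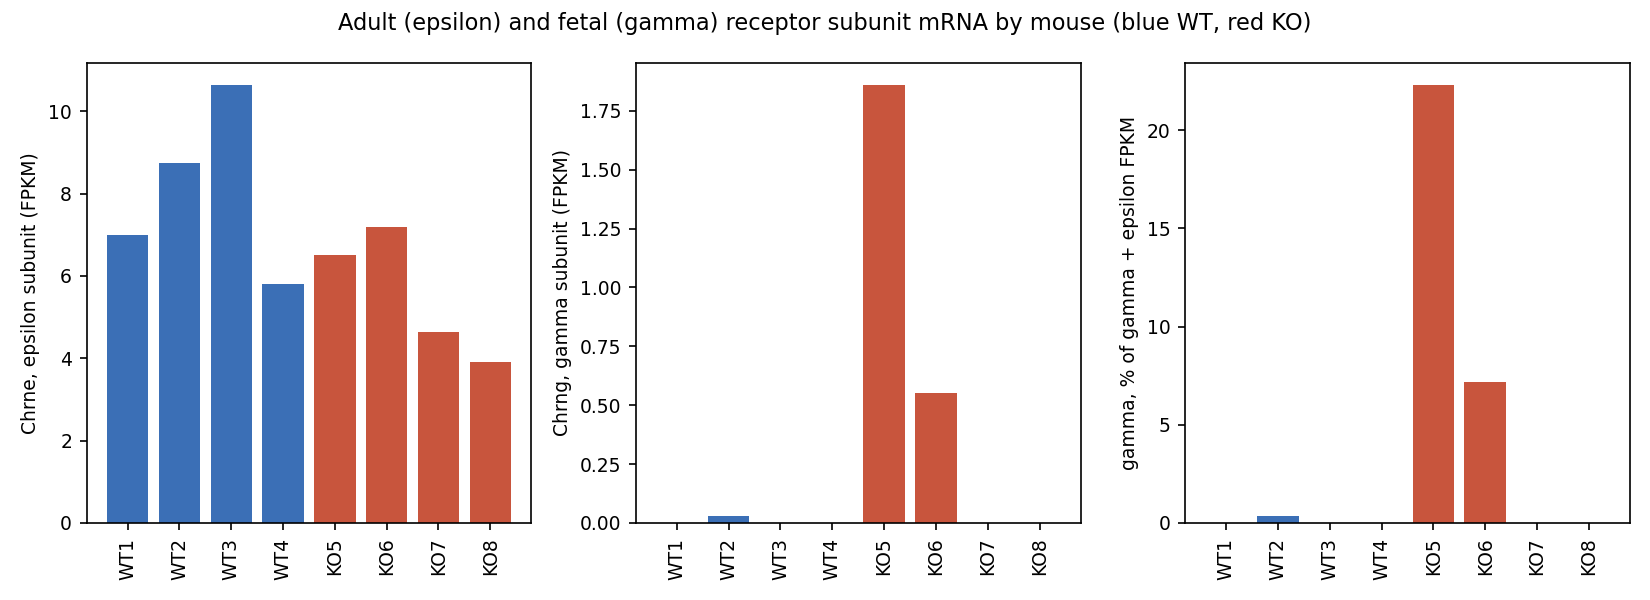
Bars by mouse (wild type blue, knockouts red) for Chrne FPKM, Chrng FPKM and the gamma share in percent of gamma plus epsilon FPKM. Gamma is seen in KO5 (22.3%) and KO6 (7.16%), is 0.357% in WT2, and is listed at 0 in the other 5 mice, while epsilon is present in all 8.

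Musk encodes the receptor tyrosine kinase that, with Lrp4, receives agrin from the nerve and clusters the receptor. It read 1.25, 3.15, 4.72 and 1.53 FPKM in the wild-type mice, and 2.42, 1.82, 3.49 and 1.74 FPKM in the knockouts. All knockouts lay inside the wild-type range, which ran over a 3.77-fold span. The difference was -0.05 on the log2 scale (95% interval -0.78 to 0.68 with an SE of 0.32, limma adjusted p = 0.956). The knockout with the highest Musk was KO7, and the highest mouse was WT3, unlike the alpha, beta, delta and gamma subunits, which were highest in KO5.

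Myog encodes myogenin, which drives receptor genes in development and after denervation. It read 2.00, 1.28, 2.40 and 1.14 FPKM in the wild-type mice, and 6.30, 2.34, 1.98 and 0.757 FPKM in the knockouts. KO5 stood above every other mouse, KO6 and KO7 lay within the wild-type range, and KO8 lay below it, an 8.32-fold span among knockouts against 2.09-fold in wild type. Means were 1.71 ± 0.593 and 2.84 ± 2.40 FPKM (SD, n = 4 each), and the difference of 0.34 on the log2 scale did not pass (95% interval -0.57 to 1.25 with an SE of 0.40, limma adjusted p = 0.702, exact permutation p = 0.6). Without KO5 it was -0.04 (limma adjusted p = 0.966). Runx1, a transcription factor of blood cells that denervated muscle also makes, read 0.404, 0.223, 0.422 and 0.381 FPKM in the wild-type mice, and 1.01, 0.664, 0.369 and 0.172 FPKM in the knockouts. KO5 and KO6 exceeded all wild-type mice and KO8 lay below them (exact permutation p = 0.486). Markers of macrophages and other leukocytes, which also make Runx1, summed highest in KO6, and 5 of 9 were highest there and 0 in KO5. The 9 summed to 140 FPKM in KO5 and 318 FPKM in KO6, against 89.4 to 187 FPKM across wild-type mice, and 133 and 113 FPKM in KO7 and KO8. Most of each sum was Lyz2, lysozyme of myeloid cells, at 125.9 FPKM in KO5 and 287.2 FPKM in KO6. Their part in the Runx1 values was not tested.

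Gadd45a encodes a stress-induced nuclear protein that is raised in denervated and fasted muscle. It read 18.9, 10.6, 9.38 and 11.2 FPKM in the wild-type mice, and 35.5, 24.3, 13.2 and 8.58 FPKM in the knockouts. KO5 and KO6 lay above all wild-type mice and KO8 below them. The means were 12.5 ± 4.33 and 20.4 ± 12.0 FPKM (SD, n = 4 each), and the difference of 0.53 on the log2 scale did not pass (95% interval -0.41 to 1.47 with an SE of 0.41, limma adjusted p = 0.604, exact permutation p = 0.314). Without KO5 it was 0.21 (limma adjusted p = 0.821). In the authors' deposited table Gadd45a was the 1 gene of the 10 with a flag at their 0.05 level, a flag that 6.37% of the rows of the authors' deposited table carry. E230016M11Rik, which overlaps Gadd45a on the opposite strand, was also highest in KO5, at 25.6 FPKM against 5.23 to 9.85 FPKM in the other mice. Without strand, reads of the overlap cannot be assigned to either of the 2 genes.

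Ncam1, a cell adhesion molecule that spreads over the fibre after denervation and is also made by satellite cells and Schwann cells, read 0.631, 0.564, 1.75 and 1.12 FPKM in the wild-type mice, and 0.739, 0.583, 0.950 and 0.490 FPKM in the knockouts. WT3 was highest, all 4 knockouts lay below the wild-type mean, and the groups overlapped (log2 difference -0.22, exact permutation p = 0.343). Without WT3 the difference was -0.06 (exact permutation p = 0.686). Ncam1 and Musk shared the order KO7, KO5, KO6, KO8 among the knockouts, which 5.3% of all tested genes had. In bulk muscle, fewer cells of a type and less RNA per cell cannot be told apart, which holds for each gene here.

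Tested together with all genes, which asks whether loss of BCATm was accompanied by a change in these transcripts, 0 of the 6 genes with a mean of at least 1 FPKM passed limma's adjusted threshold of 0.05, where 0.027% of the 11118 tested genes did (0.00899% higher and 0.018% lower in knockouts). With the unadjusted limma p held to 0.05 the count was again 0 of 6, against 10.3% of tested genes, 2.99% being higher and 7.33% lower. Chrnd, Chrng, Runx1 and Ncam1 had means under 1 FPKM (0.588, 0.306, 0.456 and 0.854 FPKM) and entered the fit across genes only with no filter, where 0 of all 10 passed. The genotypes did not separate for any of the 10 genes, while 6.75% of tested genes had groups that did not overlap. Of the 6, 3 had a knockout minus wild-type difference above 0 as deposited and 5 after median-ratio or quantile scaling. The respective shares of all tested genes were 36.4%, 50.3% and 45.2%, and median-ratio scaling moved the median of all tested genes from -0.12 to 0.003. Chrnb1 and Musk, both near 0, changed sign with either scaling.

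**Figure D3:**
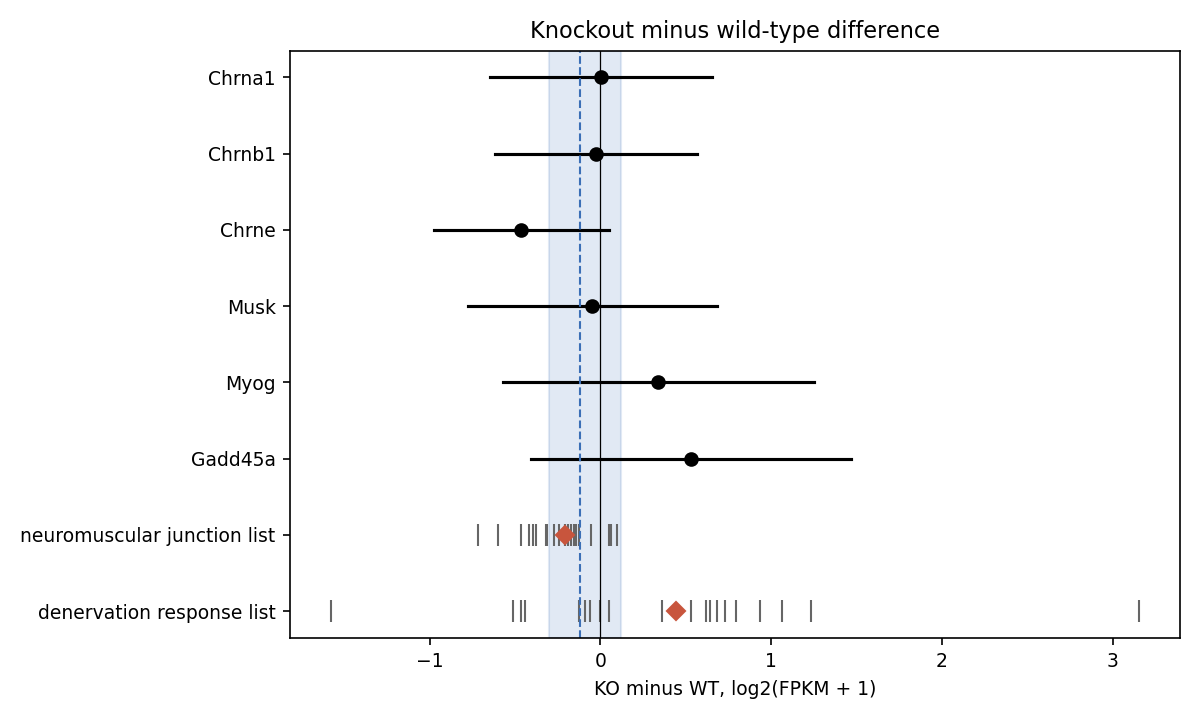
Knockout minus wild-type difference on the log2(FPKM + 1) scale: points with 95% limma intervals for the 6 tested genes, and ticks for each tested gene of the 2 lists with a diamond at the list median. The dashed line and the shaded band mark the median (-0.12) and the interquartile range of all tested genes; each of the 6 intervals includes 0.

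The knockouts differed among themselves. KO5 was the highest of all 8 mice for 7 of the 10 genes, namely Chrna1, Chrnb1, Chrnd, Chrng, Myog, Runx1 and Gadd45a, and for 4 of the 6 tested ones. Over all tested genes KO5 was the highest mouse for 11.3%. KO8 was the lowest of the 8 mice for 8 of the 9 genes other than Chrng, but it was also the lowest for 50.5% of tested genes. After median-ratio scaling KO5 still led in 7 of 10 genes, against 13.6% of tested genes, while KO8 was lowest in 3 of 9, against 14.5%. Relative to the mean of the 8 mice, the median of the 10 genes was 0.52 in KO5 on the log2 scale, where the median of all tested genes was -0.02. The SD of the log2 values in knockouts was at least 2 times that in wild type for Chrna1, Chrnb1, Myog and Gadd45a, 4 of the 6 tested genes, against 17.2% of all tested genes. Runx1 showed it too, and so did Chrng, whose wild-type SD (0.022) is that of values listed at 0 in all but WT2. Chrne, Musk, Chrnd and Ncam1 did not. This SD rule was applied only to the values as deposited, where KO8 was low across genes. That KO5 stands out was noticed in these values and was not tested.

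**Figure D4:**
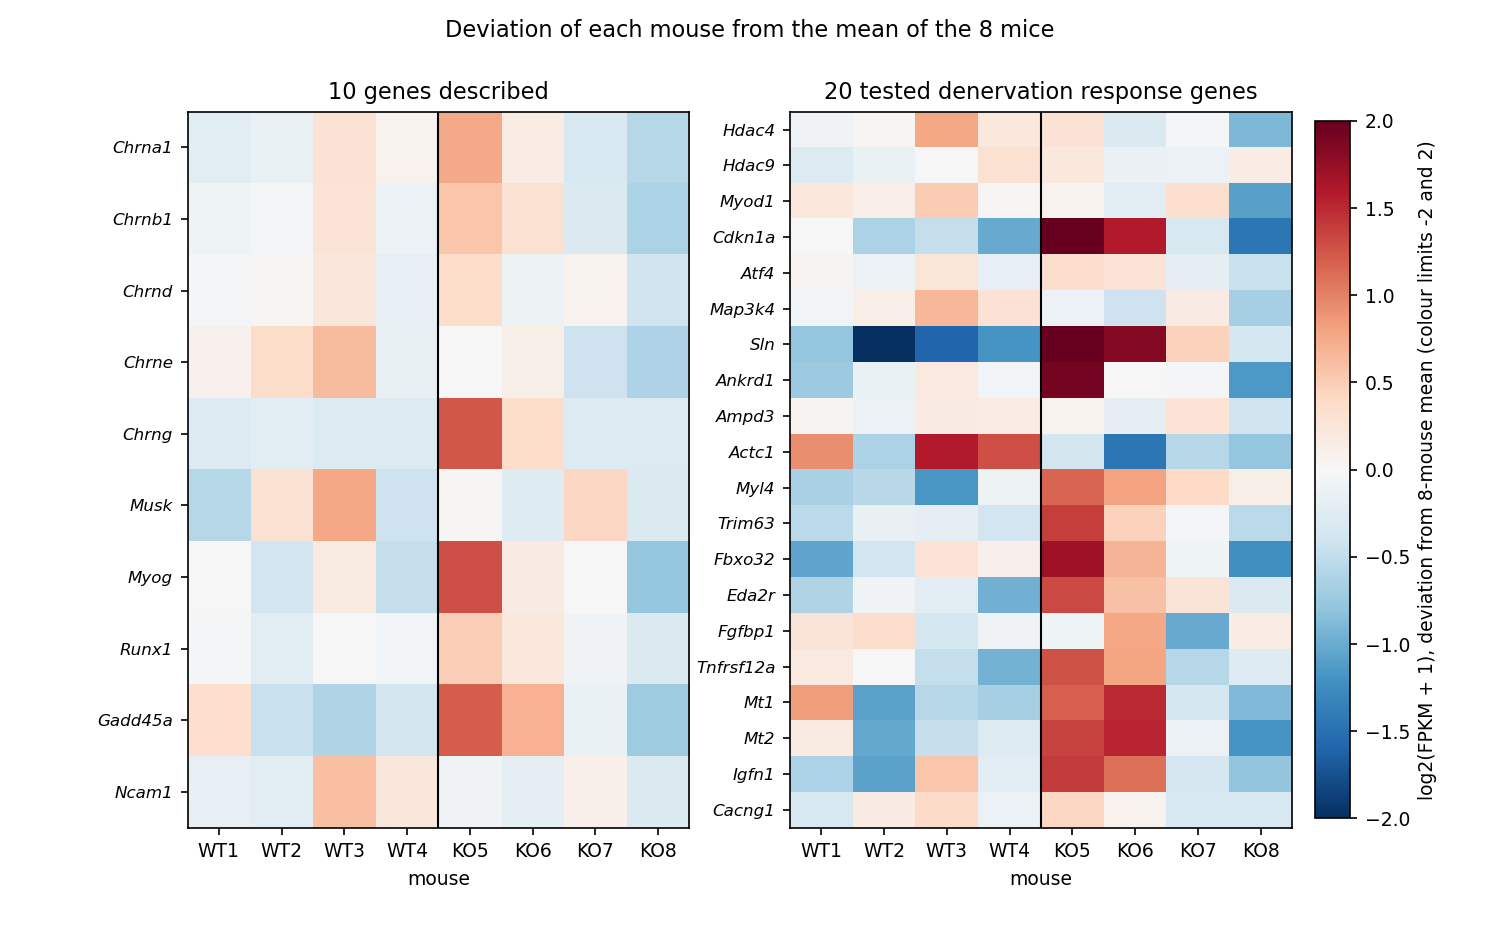
Colour gives each mouse's deviation from the mean of the 8 mice on the log2(FPKM + 1) scale (red above, blue below, limits -2 and 2), for the 10 genes on the left and the 20 tested denervation response genes on the right, with a line between genotypes. KO5 is the highest mouse for 7 of the 10 and 11 of the 20 genes, and the scale compresses genes of low FPKM.

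Other genes of the junction were looked at in the same way. Over all tested genes KO5 was the highest mouse for 11.3%. Of 28 listed genes for the agrin and neuregulin pathways, the synaptic matrix and the receptor scaffold, 27 had a value. KO5 led in 1 of these, a count too small to set the list apart from that share. The 1 gene was Rapsn, which anchors the receptor. It read 11.2 to 15.45 FPKM in the wild-type mice, and 11.7 to 15.5 FPKM in the knockouts. Of 21 tested, 0 passed in either direction, and the unadjusted limma p was below 0.05 for 2, Ache and Scn4a, both lower in knockouts, against 7.33% of all tested genes. Ache, the acetylcholinesterase of the synaptic cleft, read 7.58, 11.2, 15.4 and 8.21 FPKM in the wild-type mice, and 6.12, 7.51, 6.71 and 5.40 FPKM in the knockouts (log2 difference -0.60, limma adjusted p = 0.48). It was the 1 listed gene of 21 whose groups did not overlap, by the narrow gap between WT1 and KO6, a share no higher than the 6.75% of all tested genes. Scn4a, the voltage-gated sodium channel of muscle, read 28.4, 39.75, 62.9 and 41.3 FPKM against 22.2, 23.7, 38.4 and 18.5 FPKM (log2 difference -0.72, limma adjusted p = 0.48), with KO7 inside the wild-type range. The list median was -0.21 on the log2 scale, beside -0.12 for all tested genes.

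Among 25 listed genes of the denervation and atrophy response, 14 were highest in KO5, against 11.3% of all tested genes. Of 20 tested, 0 passed. The unadjusted limma p was below 0.05 for 3 with higher and 2 with lower knockout values, against 2.99% and 7.33% of all tested genes, and the groups did not overlap for 2, against the 6.75% of all tested genes given above. Myl4, the embryonic and atrial myosin light chain, read 12.5, 13.35, 8.37 and 18.5 FPKM in the wild-type mice, and 46.1, 35.8, 26.6 and 21.7 FPKM in the knockouts (log2 difference 1.24, limma adjusted p = 0.48), higher in each of the 4 knockouts than in every wild-type mouse. Sln, picked after the values were seen, was the other tested gene whose groups did not overlap. It read 7.085, 1.04, 3.638 and 5.094 FPKM in the wild-type mice, and 287.2, 48.5, 18 and 9.88 FPKM in the knockouts (log2 difference 3.157, limma adjusted p = 0.48). Actc1, cardiac actin, went the other way, at 327, 109, 514 and 417 FPKM in the wild-type mice, and 132, 61.9, 115 and 99.5 FPKM in the knockouts (log2 difference -1.58, limma adjusted p = 0.48), with WT2 inside the knockout range. The list median was 0.44 beside -0.12 for all tested genes, but it was 0.02 beside -0.14 without KO5 and 0.18 beside -0.15 without WT1 and KO6.

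Other genes of the listed response, chosen after their values were seen, differed in which mouse led. Cdkn1a, the cell cycle inhibitor p21, read 13.3, 8.22, 9.33 and 6.18 FPKM in the wild-type mice, and 69.3, 42.3, 10.55 and 4.29 FPKM in the knockouts, the same order of knockouts as Gadd45a. Of all tested genes, 9.99% had this order, and KO8 was the lowest knockout for 66.7%. A link between genes that share the order was not tested. Atf4, a stress factor that acts upstream of Gadd45a, spanned 87.1 to 115 FPKM in the wild-type mice, and 125, 118, 85.5 and 71.1 FPKM in the knockouts, again in that order. Hdac4, which lifts the repression of Myog, was highest in WT3 at 7.86 FPKM and read 5.32 FPKM in KO5, inside the wild-type range. Dach2, a repressor of Myog, read 0.552 to 1.67 FPKM in wild type, 0.508 FPKM in KO5 and 0.313 FPKM in KO6, and 1.13 and 0.894 FPKM in KO7 and KO8. Myod1, the related myogenic factor, read 5.56 to 8.12 FPKM in the wild-type mice, and 5.78, 4.57, 7.09 and 2.01 FPKM in the knockouts, with its highest value in WT3.

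Markers of other cells were set beside these values. Schwann cell genes, 12 listed and 12 with a value, summed to 52.5 to 97.6 FPKM across wild-type mice, and to 189, 131, 129 and 78.3 FPKM in KO5 to KO8, and 7 of the 12 were highest in KO5. No listed Schwann cell marker was at 0 in every mouse. Markers of satellite cells and regenerating fibres, of which 7 were measured, summed to 11.3 to 16.1 FPKM in the wild-type mice, and 9.19 to 15.7 FPKM in the knockouts, and 3 of the 7 were highest in KO5. Pax7, the defining satellite cell gene, read 0.250 FPKM in KO5 and 0.245 to 0.607 FPKM across wild-type mice, and embryonic myosin Myh3 read 0.925 FPKM in KO5 and at most 0.468 FPKM in the other mice. Muscle genes also summed highest in KO5, at 108412.9 FPKM against 71661.6 to 86351.9 FPKM in the other mice, but 4 of 9 were highest there. Most of that excess was Mylpf, the fast myosin light chain, at 49687.7 FPKM in KO5 and 19975.7 to 26911.0 FPKM in the other mice. Myh4, the fast myosin heavy chain, at 2683.6 FPKM in KO5, lay below all wild-type mice (2814.0 to 4798.0 FPKM), and so did Ryr1. This was not particular to KO5, since KO6 and KO8 were lower than KO5 for both genes (Myh4 2154.0 and 2506.1 FPKM). KO7 lay within the wild-type range for both. The part of Schwann cells or of fibre content in the KO5 values was not tested. Fat and epidermal markers, high in KO6, stood at 2030.5 and 3.84 FPKM in KO5.

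The genes most like Chrne, Gadd45a and Myog across the 8 mice were taken from 9951 tested genes by the mean absolute difference between deviations on the log2 scale. For Myog they were Pcif1 (0.113), Xrn2 (0.132) and Pi4ka (0.132), beside a median of 0.428 over the genes compared. Pcif1, an mRNA cap methyltransferase, read 10.05 FPKM in KO5 and 1.94 to 4.47 FPKM in the other mice. For Gadd45a they were Lrrc58 (0.168), H2afj (0.187) and the histone deacetylase gene Hdac2 (0.193), beside a median of 0.520. In KO5 and KO6 Hdac2 stood at 114.5 and 94.1 FPKM, above the 39.1 to 64.3 FPKM of the other mice. The closer genes were also high in WT1. Lrrc58 read 11.07, 10.91 and 8.906 FPKM in KO5, KO6 and WT1, and 4.272 to 4.944 FPKM in the other mice. H2afj read 9.488, 9.869 and 8.918 FPKM in KO5, KO6 and WT1, and 3.814 to 5.476 FPKM in the other mice. WT1 and KO6 carried fat transcripts, whose part in this likeness was not tested. For Chrne they were Dctn6 (0.052), Aaas (0.089) and Tacc2 (0.110), beside a median of 0.308. Dctn6, a dynactin subunit, read 46.9 to 69.05 FPKM in the wild-type mice, and 31.2 to 54.65 FPKM in the knockouts.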

How the data were processed

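Single-end sequencing over 50 cycles covered TruSeq RNA v2 libraries of gastrocnemius from 8 mice, per the labels' protocols. The authors mapped them to mm10 (TopHat 2.0.9), kept unique alignments and computed the deposited FPKM values in Cufflinks, version 2.0.2 per the labels' protocols but 2.2.1 per the submitters' processing notes. Each mouse has 1 FPKM column, and the authors' means and flags stand beside them, per the file headers. Not given in the sources used here were the gene annotation, any strand setting and the test behind the flags.

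Wild-type columns carry the mouse number, while KO5 to KO8 show only their group. The highest-mean row was used per symbol, and each of the 10 genes had 1 row. Positions are deposited starts plus 1. Genes with a mean of at least 1 FPKM were tested with limma-trend on log2(FPKM + 1), 2-sided, genotype as the only term, with Benjamini-Hochberg adjustment over all 11118 genes. Differences are knockout minus wild type on that scale, which understates those of low genes. Single genes had an exact permutation test over 70 labelled splits, whose smallest p is 0.0286.

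FPKM carry no read totals, so read depth is unknown and no counting interval is given. Relative depth is the mode of log2 ratios to WT2 over genes of low FPKM in both libraries. Promoter windows are from RefSeq, overlaps from GENCODE M21 of the same build. The members and lists were chosen with earlier results of these data known. Named by rule were all 10 genes, the 3 tested ones of smallest p with their 3 most like genes, and the 2 genes of smallest p per pathway list. Rapsn, Sln, Cdkn1a, Atf4, Hdac4, Dach2, Myod1, Gabpa and the overlapping genes were picked with their values in view. Alternatives changed the pseudocount, filter, scaling, weights, depth term, zeros and mice. Simulated data were used to test the fit. The model ran in limma 3.58.1 under R 4.3.3. Tables, permutation tests and plots used pandas 2.3.3, scipy 1.17.1 and matplotlib 3.10.9 under Python 3.11.15.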

Additional observations from a re-analysis of the deposited data

Results flagged for a closer look

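Of 21 groups of 4 values looked at, 2 held a mouse far from the others. With 3 values listed at 0 and 1 above it, such a mark is fixed by the zeros. The usual chance rate of about 1 in 20 groups therefore does not apply to these marks. Both concern the same listing: in wild type, Chrng stood at 0.0313 FPKM in WT2 and was listed at 0 in the other 3 mice, so the gamma share of gamma plus epsilon was 0.357% in WT2 and 0 elsewhere. The far higher Chrng values of KO5 and KO6 were not marked, since 2 of the 4 knockouts carried them.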

How the results depend on the processing

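None of the 10 genes and none of the listed junction or denervation genes passed under any alternative. The count of called genes, 3 over all tested genes, was 1 with values of 0 set to missing, 11 without both WT1 and KO6, and 4 to 9 when one mouse was left out (9 without WT1, 8 without WT2 or KO7, 6 without KO6 and 5 without KO8). Chrne and Ncam1 kept a negative difference and Chrng, Gadd45a and Runx1 a positive one in every alternative. With each mouse left out in turn, Chrna1 ran from -0.24 (without KO5) to 0.20, Chrnb1 from -0.22 to 0.18 (without KO8), Chrnd from -0.15 to 0.10 (without KO8), Musk from -0.25 to 0.20 (without WT3) and Myog from -0.035 (without KO5) to 0.65. The sign of Chrna1 also changed with pseudocounts of 0.1 (-0.023) and 0.5 (-0.007), without WT1 and KO6 (-0.12) and with the depth term (-0.04). Chrnb1 changed sign with median-ratio scaling (0.11), quantile scaling (0.067) and array weights (0.17), Chrnd with median-ratio scaling (0.017), and Musk with these 3 (0.063, 0.073 and 0.235) and the depth term (0.025). The cause was not tested. Weights, robust fits and the depth term were not run for the 4 genes under 1 FPKM, a minimum of 5 FPKM leaves out Chrna1, Musk and Myog, and values of 0 as missing leave too few for Chrng. No paired analysis was possible because the knockout columns carry numbers 5 to 8, which match no labelled knockout.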
